A study of Mus musculus with 14 samples.

Results

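The amino acid and peptide transporters described here are the mouse genes whose symbol begins with Slc1a, Slc3a, Slc6a, Slc7a, Slc15a, Slc36a, Slc38a or Slc43a followed by a number. The rule found 69 genes of the 19938 genes on the arrays that carry a single symbol. They lie in 8 families, and the Slc6 family was the largest with 21 genes, followed by Slc7 with 16 and Slc38 with 11. Each had 1 transcript cluster, the array's unit of measurement for a gene, except Slc38a1 and Slc38a9, which had 2 each, of which the brighter was used. The rule reads symbols, so it also takes in Slc7a6os and Slc6a19os, which are named as opposite-strand genes and encode no carrier.

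The study compared duodenal tumors with normal duodenum on Affymetrix Mouse Gene 1.0 ST arrays, which read a transcript with many short probes. The tumor group held 6 arrays of proximal duodenal tumors from mice with CreERT2 inserted in both copies of Lrig1 (Lrig1-CreERT2/CreERT2, labelled Lrig1-/-). The adjacent normal group held 5 arrays of tissue labelled normal duodenal epithelium from mice of that same genotype. The wildtype group held 3 arrays of normal duodenal epithelium from mice with the genotype wildtype. Tumor replicates 2 to 6 came from the same mice as adjacent normal replicates 1 to 5, in that order, and tumor replicate 1 had no matched tissue. The 9 mice were age matched, on a background of 129S7/SvEv and C57/BL6, and the labels give neither an age nor a treatment. Both copies of Lrig1 are altered in the tumor and in the adjacent tissue alike, so the difference between these tissues is not a difference in Lrig1 genotype. Lrig1 encodes a membrane protein that restrains growth factor receptors and marks stem cells of the gut.

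The absorptive cell of the small intestine takes up di- and tripeptides and free amino acids through carriers in its brush border and releases amino acids to the blood through a second set in its basolateral membrane. Several of these carriers work only as pairs of a heavy chain, of the Slc3 family, and a light chain, of the Slc7 family. Dividing cells use a further set of carriers for glutamine, leucine and cystine, many of which are induced when amino acids run short. Other members carry neurotransmitters, creatine or osmolytes, or move amino acids out of lysosomes.

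Markers of other cell types differed between arrays of one group, as did markers of position along the gut. Of the 11 pancreatic acinar genes listed, 9 were measured. Their mean log2 signal ran from 6.89 to 9.85 in tumors. It was 13.4 and 14.2 in adjacent normal replicates 1 and 2, against 6.80 to 6.96 in replicates 3 to 5. In the wildtype arrays it was 14.011 in replicate 1, 6.99 in replicate 2 and 13.6 in replicate 3. S100g and Cybrd1, genes of calcium and iron uptake that are high in the proximal duodenum, averaged 12.9 to 13.4 in tumors. They averaged 13.6 and 12.7 in adjacent normal replicates 1 and 2, and between 7.99 and 8.93 in replicates 3 to 5. In the wildtype arrays they averaged 13.5, 7.78 and 13.2. The 4 non-tumor arrays with low acinar signal, which the labels also place in the proximal duodenum, were therefore the 4 with low S100g and Cybrd1. Gastric pit genes averaged 12.3 to 13.8 in tumors, 6.11 to 8.19 in adjacent tissue, and 13.4 in wildtype replicate 1 against 6.73 and 7.17 in wildtype replicates 2 and 3. The mouse IDs begin with F for tumors 1 to 3, adjacent normal 1 and 2 and wildtype 1, and with B for the rest, and the labels do not say what the letter means. Among the adjacent arrays, replicates 1 and 2 were thus set apart from 3 to 5 by letter, acinar signal, and S100g and Cybrd1. These traits cannot be told apart there. Fits of tumors against adjacent tissue by letter and by acinar signal keep the same adjacent arrays. They are therefore not separate checks.

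Across the 69 genes, 17 were higher and 17 were lower in tumors than in adjacent tissue at an adjusted p below 0.05 (limma with the mouse as a random block, Benjamini-Hochberg adjustment over all genes). Of all genes tested, 19.1% were higher and 12.6% were lower by the same rule, so 34 members passed in either direction beside 31.7% of all genes. With each array centred on its median the transporter counts were 14 higher and 19 lower, and those over all genes 2944 and 3448 in place of 3804 and 2509. At a change of at least 2-fold, 7 transporters were higher, against 3.3% of all genes, and 13 were lower, against 3.07%. Tumor and adjacent arrays did not overlap for 19 transporters, against 17.2% of all genes. The median log2 difference over the transporters was 0.01, beside 0.04 over all genes, while the median size of the difference was 0.45 beside 0.15. By signal, which depends on the probes as well as on the transcript, 38 members lay above the median gene and 31 below it. Of the 38 above it 27 passed the test, and of the 31 below it 7. In a fit of only the 9969 genes above the median, 3063 genes were higher and 2075 lower. In that fit 12 of the 38 members were higher and 16 lower. The share of all genes below the median that passed was not counted.

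Within the mice of letter F, with 3 tumor and 2 adjacent arrays, 2 members were higher and 9 were lower, beside 1104 and 615 of the 19938 genes. Within those of letter B, with 3 arrays of each, 16 were higher and 19 were lower, beside 2937 and 2759 genes. Several members called in all arrays missed the threshold within letter F. Among the lowered carriers these included Slc7a9 at -0.96 ± 0.33 (adjusted p = 0.131), Slc7a7 at -0.74 ± 0.23 (adjusted p = 0.103), Slc3a2 at -0.52 ± 0.15 (adjusted p = 0.0852), Slc6a4 at -1.33 ± 0.31 (adjusted p = 0.0513) and Slc6a8 at -0.78 ± 0.20 (adjusted p = 0.0645). Among the raised ones they included Slc6a9 at 0.77 ± 0.40 (adjusted p = 0.307), Slc7a6 at 0.85 ± 0.38 (adjusted p = 0.235), Slc43a1 at 0.57 ± 0.18 (adjusted p = 0.107), Slc38a1 at 0.55 ± 0.23 (adjusted p = 0.203), Slc38a2 at 0.33 ± 0.26 (adjusted p = 0.503) and Slc36a4 at 1.00 ± 0.35 (adjusted p = 0.141). Within letter B the same carriers gave -1.32, -1.37, -0.99, -2.26 and -1.20, and 2.16, 1.52, 0.67, 1.06, 0.83 and 1.14, with adjusted p below 0.05 for each. Slc1a2, Slc7a4, Slc38a4, Slc15a4, Slc38a7, Slc6a5, Slc6a18 and Slc6a3 also missed the threshold within letter F. The test of a difference between the letters was not made. When the 4 non-tumor arrays with low acinar signal were left out, 3 members were higher and 15 were lower, beside 1191 and 990 genes, and the higher ones were Slc6a12, Slc6a14 and Slc43a1.

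**Figure D1:**
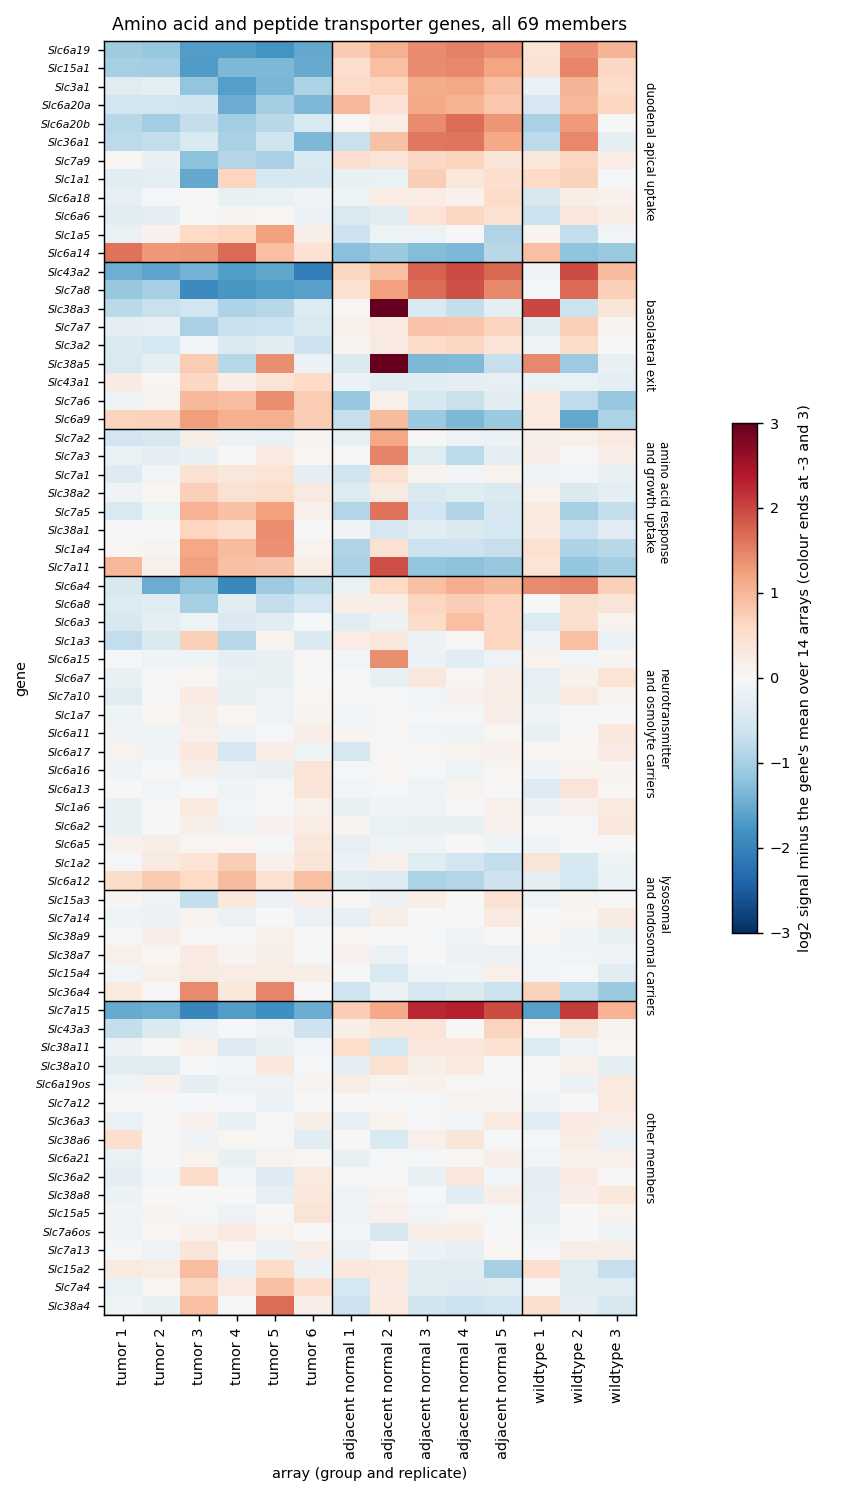
Log2 signal of each of the 69 genes (rows, grouped by role) in each of the 14 arrays (columns, by group and replicate), minus the gene's mean over the 14 arrays; colour ends at -3 and 3. In the upper blocks the 6 tumors are below their adjacent tissue for most brush border carriers, adjacent normal 2 stands apart for Slc38a3, Slc38a5, Slc7a5 and Slc7a11, and wildtype 1 is on the tumor side for Slc7a15, Slc6a20b and Slc36a1.

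The brush border carriers were mostly lower in tumors. Of the 12 genes listed for uptake at the duodenal apical membrane, 8 were lower, 2 were higher and 2 did not pass the test, with a median log2 difference of -1.45. The lower genes included the principal carriers of neutral amino acids, peptides, cystine and proline, and the higher ones were Slc6a14 and Slc1a5. Genes that mark the enterocyte moved the same way: 8 of 9 were lower in tumors, with a median of -2.50, and their part in the carriers' difference was not tested. Immune cell markers also moved between these groups, and their part was not tested: T and NK cell genes were lower in 6 of 6, mast cell genes higher in 6 of 9, and macrophage genes lower in 5 and higher in 1 of 7. The T and NK cell genes averaged 7.29 to 8.77 in tumors and 10.2 to 10.6 in adjacent tissue, and the mast cell genes 7.78 to 8.75 in tumors and 6.07 to 6.98 in adjacent tissue. In bulk tissue, fewer cells of a type and less RNA per cell cannot be told apart. The counts for the apical list were 1 higher and 5 lower within the mice of letter F, and 2 higher and 9 lower within those of letter B.

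Slc6a19 (B0AT1), the sodium-dependent carrier of neutral amino acids, showed the smallest p of all members. Its log2 signal ran from 9.71 to 10.46 in tumors, with a median of 9.90. Adjacent tissue gave 12.30, 12.58, 12.93, 13.03 and 12.88, and wildtype duodenum 11.89, 12.89 and 12.53. Every tumor thus lay below every non-tumor array, by more than 1 log2 unit. The difference from adjacent tissue was -2.74 ± 0.17 (SE), a 6.67-fold lower signal (limma, adjusted p = 2.32e-07), and all 5 pairs showed it. Within letter F it was -2.24 ± 0.21 and within letter B -3.10 ± 0.11. Slc15a1 (PepT1), the proton-coupled carrier of di- and tripeptides, behaved in the same way on the array. Tumors ran from 10.37 to 11.06 with a median of 10.71, adjacent tissue gave 12.56, 12.96, 13.48, 13.50 and 13.26, and wildtype duodenum 12.49, 13.53 and 12.69. The groups did not overlap, and the log2 difference from adjacent tissue was -2.43 ± 0.18 (limma, adjusted p = 7.19e-07), or 5.41-fold.

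Both partners of the cystine and dibasic amino acid exchanger fell. The heavy chain Slc3a1 (rBAT) ran from 9.72 to 11.10 in tumors with a median of 10.31, against 11.94, 12.02, 12.48, 12.52 and 12.27 in adjacent tissue and 11.16, 12.38 and 11.93 in wildtype duodenum. The tumors lay below all other arrays, narrowly below wildtype replicate 1. The difference of Slc3a1 from adjacent tissue was -1.88 ± 0.23 (adjusted p = 2.96e-05). The light chain Slc7a9 (b0,+AT) ran from 9.76 to 11.05 in tumors with a median of 10.31, against 11.49, 11.37, 11.60, 11.65 and 11.35 in adjacent tissue and 11.30, 11.62 and 11.21 in wildtype duodenum. Here too the tumors lay below all other arrays, and the difference was -1.17 ± 0.17 (adjusted p = 9.29e-05), with tumors 1 and 2 the highest of the 6. Slc3a1 had the only member promoter with the HNF4 element searched, a motif of a hepatocyte nuclear factor that acts in enterocytes. The window from RefSeq (GRCm38.p6, chr17:85028097-85028396, plus strand, 250 bases before to 50 after the start) is printed 5′ to 3′ because it holds 3 of the intestinal motifs searched. Capitals mark, in order, a GATA element, a CDX element and the HNF4 element, which begin 119, 73 and 39 bases before the start.
Slc3a1: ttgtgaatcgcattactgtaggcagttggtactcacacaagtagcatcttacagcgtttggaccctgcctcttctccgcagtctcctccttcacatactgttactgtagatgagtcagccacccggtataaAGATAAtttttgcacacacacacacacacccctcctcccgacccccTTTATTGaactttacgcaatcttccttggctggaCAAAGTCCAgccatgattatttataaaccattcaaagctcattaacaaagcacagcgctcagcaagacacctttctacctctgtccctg
All motifs were searched on both strands in 32851 promoter windows of that length. The GATA element, searched as AGATAA, was held by 11.2% of them and by 6 of the 72 windows of members. The CDX element, searched as TTTATNG, was held by 10.9% and by 2 of the 72. The HNF4 element, searched as CAAAGTCCA, was held by 0.475% and by 1 of the 72. A match describes the letters in the window and does not show that a factor binds there.

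The proline carrier Slc6a20a (SIT1) ran from 10.79 to 11.73 in tumors with a median of 11.47, against 13.24, 12.71, 13.41, 13.32 and 13.08 in adjacent tissue and 11.78, 13.27 and 12.93 in wildtype duodenum. Wildtype replicate 1 was close to the highest tumor, while the other 7 non-tumor arrays were well above it. Against adjacent tissue Slc6a20a differed by -1.83 ± 0.22 (adjusted p = 2.31e-05). Its close relative Slc6a20b ran from 6.99 to 7.57 in tumors, against 8.07, 8.24, 9.45, 9.70 and 9.36 in adjacent tissue and 7.05, 9.29 and 8.01 in wildtype duodenum, a difference from adjacent tissue of -1.76 ± 0.31 (adjusted p = 0.000445). The 2 genes are close copies, so probes may read both and their separate values are uncertain. Slc36a1 (PAT1), a proton-coupled carrier of glycine and proline, ran from 9.54 to 10.43 in tumors with a median of 10.12, against 10.21, 11.77, 12.46, 12.50 and 12.03 in adjacent tissue. Wildtype duodenum gave 10.11, 12.33 and 10.59. Adjacent normal 1 and wildtype 1 lay inside the tumor range. Slc36a1 differed from adjacent tissue by -1.72 ± 0.36 (adjusted p = 0.00184), but -0.75 ± 0.38 (adjusted p = 0.282) within letter F and -2.41 ± 0.31 (adjusted p = 0.00039) within letter B.

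Among the remaining apical carriers, Slc6a18, a carrier of glycine and alanine known mainly from kidney, was 0.32 lower in tumors on the log2 scale (adjusted p = 0.0481) at a dim signal of 6.29 ± 0.10 in tumors and 6.61 ± 0.26 in adjacent tissue (SD, n = 6 and n = 5). That call was lost in 9 of the 14 fits that left out 1 array, without tumor 1, 4, 5 or 6, adjacent normal 2, 3, 4 or 5, or wildtype 3, with adjusted p between 0.0519 and 0.177. It was also lost with the mouse as a fixed block over the 5 pairs (adjusted p = 0.0904). The glutamate carrier Slc1a1 averaged 9.01 ± 0.69 in tumors and 9.64 ± 0.43 in adjacent tissue, a log2 difference of -0.64 ± 0.24 that did not pass (adjusted p = 0.0557). The taurine carrier Slc6a6 averaged 11.19 ± 0.17 and 11.44 ± 0.50 in the same order, a difference of -0.23 ± 0.18 (adjusted p = 0.388). For Slc6a6 this was -0.51 ± 0.09 within letter B (adjusted p = 0.00298) and 0.21 ± 0.12 within letter F (adjusted p = 0.361). It was -0.58 ± 0.10 without the 4 acinar-containing normal arrays (adjusted p = 0.000919) and 0.29 ± 0.19 without the 4 low-acinar ones (adjusted p = 0.437).

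Slc6a14 and Slc1a5 rose. Slc6a14 (ATB0,+), a sodium- and chloride-coupled carrier of nearly all neutral and cationic amino acids, ran from 7.06 to 8.33 in tumors with a median of 7.94. Adjacent tissue gave 5.37, 5.53, 5.32, 5.28 and 5.79, and wildtype duodenum 7.53, 5.42 and 5.52. The tumors lay above all adjacent tissue, and wildtype replicate 1 alone among the non-tumor arrays lay within their range. Its difference from adjacent tissue was 2.36 ± 0.28, or 5.13-fold (limma, adjusted p = 2.09e-05), and it was 2.58 ± 0.13 within letter F and 2.18 ± 0.27 within letter B. Gastric pit genes, of which 6 of 6 were higher in tumors with a median of 6.49, were also high in wildtype replicate 1, and their part in the Slc6a14 signal was not tested. Slc1a5 (ASCT2), an exchanger of neutral amino acids including glutamine, ran from 9.67 to 11.12 in tumors with a median of 10.26, against 9.25, 9.72, 9.72, 9.87 and 8.98 in adjacent tissue and 9.96, 9.17 and 9.79 in wildtype duodenum. The ranges overlapped, and Slc1a5 differed from adjacent tissue by 0.84 ± 0.19 (adjusted p = 0.00306), with tumor above adjacent tissue in all 5 pairs. Within letter F this was 0.61 ± 0.23 (adjusted p = 0.163).

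**Figure D2:**
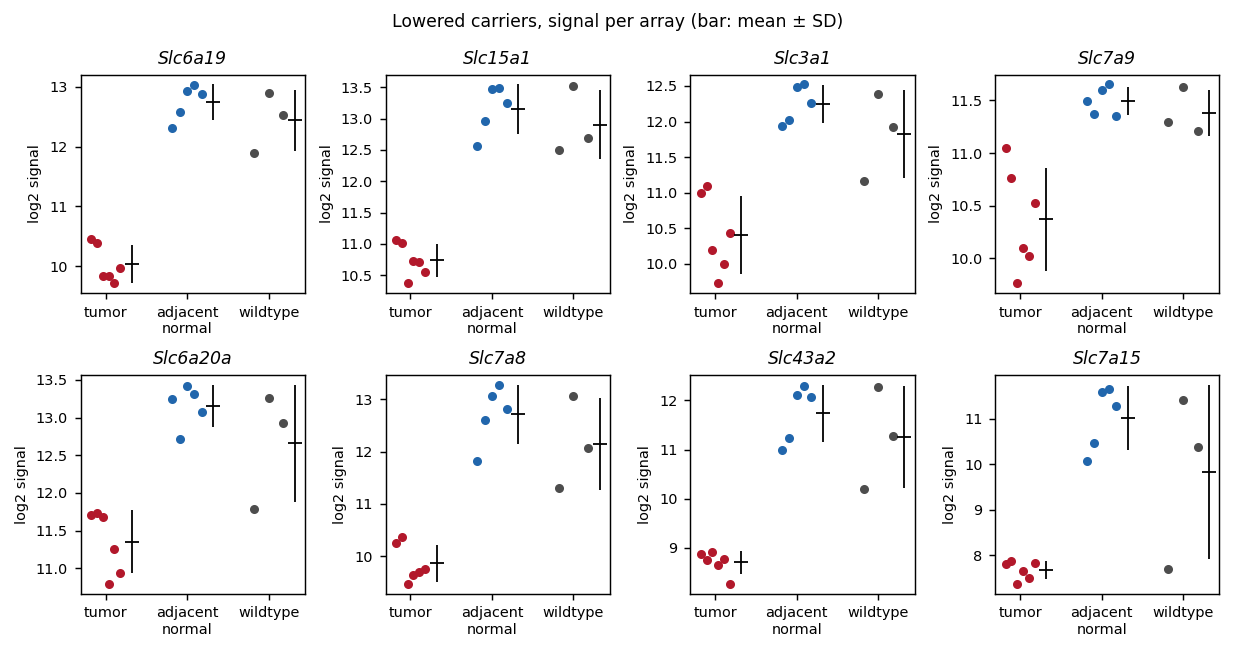
Log2 signal per array (vertical axis, its range set per gene and not starting at 0) of 8 lowered carriers in 6 tumor, 5 adjacent normal and 3 wildtype arrays; points are arrays in replicate order, and the bar beside them is the mean ± SD. The 6 tumors lie below the 5 adjacent arrays in every panel, and wildtype replicate 1, the leftmost wildtype point, is the lowest wildtype array for all but Slc7a9, at 7.69 for Slc7a15.

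The partners of the apical carriers were listed separately. Of 7 listed, 6 were measured, and 4 were lower and 1 was higher in tumors. The scaffold Pdzk1, which anchors brush border carriers, was 6.34 ± 0.19 in tumors and 9.72 ± 0.82 in adjacent tissue, a log2 difference of -3.38 ± 0.33 (adjusted p = 4.58e-06). Aminopeptidase N, Anpep, which frees amino acids from peptides and escorts B0AT1 in mouse intestine, differed by -3.03 ± 0.19. The sodium-proton exchanger Slc9a3, which supplies the proton gradient for peptide uptake, differed by -1.91 ± 0.23, and its regulator Slc9a3r1 by -1.12 ± 0.13. Its relative Slc9a3r2 was 0.72 ± 0.24 higher (adjusted p = 0.0298).

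Of 9 carriers listed for the basolateral membrane, 4 were lower in tumors, 3 were higher and 2 did not pass. The carriers that fell were the uniporter Slc43a2, the exchangers Slc7a8 and Slc7a7 and their shared heavy chain Slc3a2. Those that rose were Slc6a9, Slc7a6 and Slc43a1. The counts of 3 higher and 4 lower were the same in each fit that left out 1 array and within letter B. Within letter F 0 were higher and 2 were lower in limma, with 1 and 5 at an unadjusted p below 0.05.

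Slc43a2 (LAT4), a uniporter of branched-chain and aromatic amino acids, ran from 8.27 to 8.91 in tumors with a median of 8.77. Adjacent tissue gave 10.99, 11.23, 12.11, 12.28 and 12.07, and wildtype duodenum 10.20, 12.28 and 11.28. The gap between the highest tumor and the lowest other array exceeded 1 log2 unit. The difference from adjacent tissue was -3.04 ± 0.28, or 8.23-fold (limma, adjusted p = 2.55e-06), with -2.26 ± 0.12 within letter F and -3.59 ± 0.19 within letter B. Slc7a8 (LAT2), an exchanger of neutral amino acids, ran from 9.47 to 10.38 in tumors with a median of 9.73, against 11.82, 12.61, 13.06, 13.28 and 12.82 in adjacent tissue and 11.31, 13.07 and 12.08 in wildtype duodenum. These groups did not overlap either, at a difference of -2.88 ± 0.27 from adjacent tissue (adjusted p = 3.42e-06). In both genes adjacent normal 1 and 2 were below adjacent normal 3 to 5, an order shared by 13 of the 17 lowered members. The share of all genes with that order was not counted. The enterocyte genes averaged 13.1 and 13.3 in those 2 arrays, against 13.6 to 13.8 in adjacent normal 3 to 5. S100g and Cybrd1 averaged 13.6 and 12.7 there, against 7.99 to 8.93. Enpp7, Slc10a2 and Fabp6, listed for a more distal position along the gut, averaged 6.17 and 6.66, against 7.71 to 8.30. The part of these genes in that order was not tested.

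Slc7a7 (y+LAT1), which exports cationic amino acids, ran from 11.07 to 11.81 in tumors with a median of 11.51, against 12.20, 12.33, 12.91, 12.89 and 12.74 in adjacent tissue and 11.72, 12.77 and 12.17 in wildtype duodenum. Its difference from adjacent tissue was -1.12 ± 0.17 (adjusted p = 0.000133), and wildtype 1 lay within the tumor range. The heavy chain Slc3a2 (4F2hc) differed least of these 4. Tumors ran from 12.45 to 12.98 with a median of 12.62, against 13.15, 13.32, 13.63, 13.69 and 13.45 in adjacent tissue and 12.97, 13.62 and 13.08 in wildtype duodenum, a difference from adjacent tissue of -0.79 ± 0.12 (adjusted p = 0.000107).

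The glycine carrier Slc6a9 (GlyT1) ran from 11.91 to 12.49 in tumors with a median of 12.15. Adjacent tissue gave 10.54, 12.19, 10.11, 9.88 and 10.12, and wildtype duodenum 11.53, 9.71 and 10.29. Adjacent normal 2 sat inside the tumor range and the other 4 adjacent arrays lay more than 1 log2 unit below it. GlyT1 signal differed from adjacent tissue by 1.60 ± 0.32 (adjusted p = 0.00123), and by 1.98 ± 0.22 without adjacent normal 2. The call was lost, at 0.80 ± 0.36 (adjusted p = 0.206), when the 4 low-acinar normal arrays were left out. Slc7a6 (y+LAT2), an exchanger of cationic and neutral amino acids, ran from 8.80 to 10.32 in tumors with a median of 9.76, against 7.79, 9.08, 8.44, 8.25 and 8.60 in adjacent tissue and 9.21, 8.16 and 7.78 in wildtype duodenum. The difference was 1.22 ± 0.25 (adjusted p = 0.0017). Slc43a1 (LAT3), a uniporter of branched-chain amino acids, was 7.69 ± 0.23 in tumors and 7.08 ± 0.06 in adjacent tissue (SD, n = 6 and n = 5), without overlap, at a difference of 0.62 ± 0.09 (adjusted p = 8.96e-05).

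The glutamine carriers Slc38a3 and Slc38a5 did not differ past the threshold. Slc38a3 (SNAT3) ran from 6.37 to 6.88 in tumors, against 7.36, 11.20, 6.83, 6.58 and 7.02 in adjacent tissue and 9.31, 6.66 and 7.67 in wildtype duodenum. Slc38a5 (SNAT5) ran from 6.89 to 9.12 in tumors, against 7.29, 11.01, 6.40, 6.41 and 7.04 in adjacent tissue and 9.18, 6.64 and 7.52 in wildtype duodenum. For both genes the 2 highest arrays of all were adjacent normal 2 and wildtype 1, the arrays with the highest acinar signal. The differences from adjacent tissue were -1.20 ± 0.59 for Slc38a3 (adjusted p = 0.148) and 0.21 ± 0.63 for Slc38a5 (adjusted p = 0.863). Without the 4 non-tumor arrays with acinar signal they were -0.23 ± 0.11 (adjusted p = 0.143) and 1.21 ± 0.38 (adjusted p = 0.0336). With those 4 kept and the other 4 non-tumor arrays left out they were -2.67 ± 0.71 (adjusted p = 0.0375) and -1.31 ± 0.79 (adjusted p = 0.372).

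**Figure D3:**
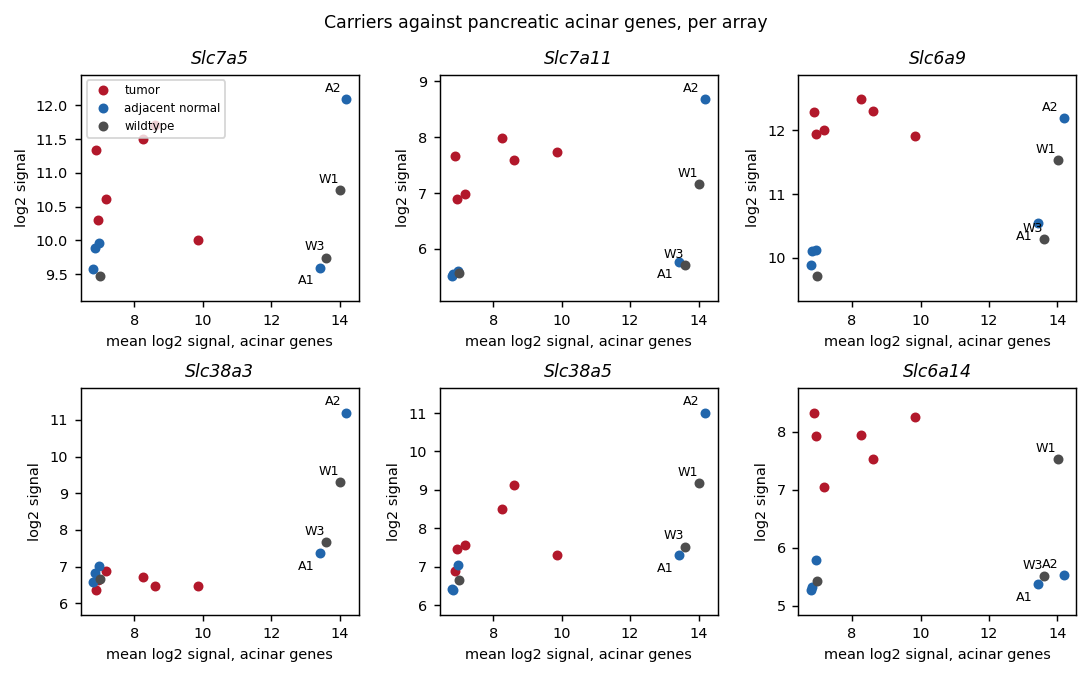
Log2 signal of 6 carriers (vertical axis, range set per gene) against the mean log2 signal of 9 pancreatic acinar genes (horizontal axis) in the 14 arrays; A1 and A2 are adjacent normal 1 and 2, W1 and W3 wildtype 1 and 3. For Slc7a5, Slc7a11, Slc38a3 and Slc38a5 the highest point is A2, whose acinar mean is 14.2, and for Slc6a14 the only non-tumor array near the tumors is W1, at 7.53.

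Of 8 carriers listed for the amino acid response and growth-related uptake, 4 were higher in tumors than in adjacent tissue and 4 did not pass, with a median log2 difference of 0.69. Those that rose were Slc7a11, Slc1a4, Slc38a1 and Slc38a2, and those that did not pass were Slc7a5 and the cationic carriers Slc7a1, Slc7a2 and Slc7a3. Within the mice of letter B 6 were higher, with a median of 0.94. Within those of letter F 0 passed in limma, with a median of 0.20, and at an unadjusted p below 0.05 0 were higher and 1 was lower.

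Slc1a4 (ASCT1), an exchanger of alanine, serine and cysteine, ran from 8.47 to 9.78 in tumors with a median of 8.94, against 7.52, 8.88, 7.77, 7.79 and 7.72 in adjacent tissue and 8.88, 7.49 and 7.58 in wildtype duodenum. Only adjacent normal 2 and wildtype 1 lay inside the tumor range. Its difference from adjacent tissue was 1.14 ± 0.27, or 2.2-fold (adjusted p = 0.00438), and it was 0.69 ± 0.41 (adjusted p = 0.368) within letter F and 1.46 ± 0.23 (adjusted p = 0.0011) within letter B. Slc7a11 (xCT), which imports cystine in exchange for glutamate, ran from 6.89 to 7.98 in tumors with a median of 7.62, against 5.78, 8.68, 5.55, 5.51 and 5.61 in adjacent tissue and 7.16, 5.57 and 5.71 in wildtype duodenum. The highest of all 14 arrays was thus adjacent normal 2. The difference was 1.23 ± 0.42 (limma, adjusted p = 0.0358). This call was lost in 8 of 14 fits that left out 1 array, without tumor 1, 4, 5 or 6 or adjacent normal 1, 3, 4 or 5 (adjusted p 0.0576 to 0.114). It was also lost with the mouse as a fixed block over the 5 pairs (adjusted p = 0.0525). Without adjacent normal 2 the difference was 1.78 ± 0.24 (adjusted p = 6.94e-05). When the 4 low-acinar normal arrays were left out it was 0.24 ± 0.56 (adjusted p = 0.883).

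The promoters of Slc7a11 and Slc1a4 are printed because both hold the core of the amino acid response element, the sequence bound by ATF4 when amino acids are scarce. The core was searched as TGATGNAA on both strands, and 3.97% of the 32851 windows held it. Of the 72 windows of members 6 held it, and these belonged to 5 of the 51 members with a window. The 5 were Slc7a11, Slc1a4, Slc7a7, which was lower in tumors, and Slc15a5 and Slc6a21, which did not pass the test. The windows, from RefSeq (GRCm38.p6, 5′ to 3′ on the gene's strand), are chr3:50443564-50443863 on the minus strand for Slc7a11 and chr11:20332664-20332963 on the minus strand for Slc1a4. Capitals mark the core, which begins 66 and 47 bases before the start in Slc7a11 and 4 bases before it in Slc1a4.
Slc7a11: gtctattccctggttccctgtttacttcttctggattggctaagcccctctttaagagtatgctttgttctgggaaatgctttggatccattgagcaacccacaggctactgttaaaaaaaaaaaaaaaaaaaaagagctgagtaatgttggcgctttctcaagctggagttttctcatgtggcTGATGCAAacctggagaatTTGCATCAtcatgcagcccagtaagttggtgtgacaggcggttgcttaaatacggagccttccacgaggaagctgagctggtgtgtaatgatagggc
Slc1a4: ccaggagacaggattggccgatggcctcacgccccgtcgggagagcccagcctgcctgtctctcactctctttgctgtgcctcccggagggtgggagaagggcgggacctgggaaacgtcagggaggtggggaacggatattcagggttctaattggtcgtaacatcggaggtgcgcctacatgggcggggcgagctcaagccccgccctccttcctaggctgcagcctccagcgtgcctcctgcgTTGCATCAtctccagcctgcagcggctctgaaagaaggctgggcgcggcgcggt

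Slc38a1 (SNAT1), a sodium-coupled glutamine carrier, ran from 9.88 to 11.28 in tumors with a median of 10.15, against 9.77, 9.37, 9.57, 9.46 and 9.34 in adjacent tissue and 10.16, 9.23 and 9.53 in wildtype duodenum. Tumors and adjacent tissue did not overlap, at a difference of 0.83 ± 0.21 (adjusted p = 0.00616). Its relative Slc38a2 (SNAT2), induced by amino acid shortage in cultured cells, ran from 11.55 to 12.39 in tumors with a median of 12.03, against 11.25, 11.93, 11.22, 11.30 and 11.23 in adjacent tissue and 11.78, 11.23 and 11.40 in wildtype duodenum. The difference was 0.63 ± 0.14 (adjusted p = 0.00225), with tumor above adjacent tissue in all 5 pairs, and adjacent normal 2 and wildtype 1 inside the tumor range.

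Slc7a5 (LAT1), the carrier of leucine and other large neutral amino acids in dividing cells, ran from 10.001 to 11.71 in tumors with a median of 10.97. Adjacent tissue gave 9.59, 12.09, 9.88, 9.57 and 9.96, and wildtype duodenum 10.74, 9.47 and 9.74. All 6 tumors lay above 4 adjacent arrays and below the remaining one, adjacent normal 2. The difference of 0.75 ± 0.37 did not pass (limma, adjusted p = 0.155). Without adjacent normal 2 it was 1.19 ± 0.28 (adjusted p = 0.00411), within letter B 1.41 ± 0.23 (adjusted p = 0.00163) and within letter F -0.17 ± 0.65 (adjusted p = 0.913). Acinar genes were at their highest in adjacent normal 2, and their part in this value was not tested. The arginine and lysine carrier Slc7a1 (CAT1) averaged 9.68 ± 0.37 in tumors and 9.60 ± 0.38 in adjacent tissue (SD, n = 6 and n = 5), a difference of 0.11 ± 0.15 (adjusted p = 0.659). Slc7a2 averaged 6.15 and Slc7a3 6.05 in tumors, against 6.47 and 6.11 in adjacent tissue, and in both the highest array was adjacent normal 2, at 7.50 and 7.60. Slc7a3 differed by -0.05 ± 0.27 with all arrays and by 0.48 ± 0.13 (adjusted p = 0.0174) without the 4 non-tumor arrays with acinar signal. It differed by -0.82 ± 0.30 (adjusted p = 0.108) without the 4 low-acinar ones, by 0.59 ± 0.14 (adjusted p = 0.0098) within letter B and by -0.95 ± 0.38 (adjusted p = 0.182) within letter F.

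**Figure D4:**
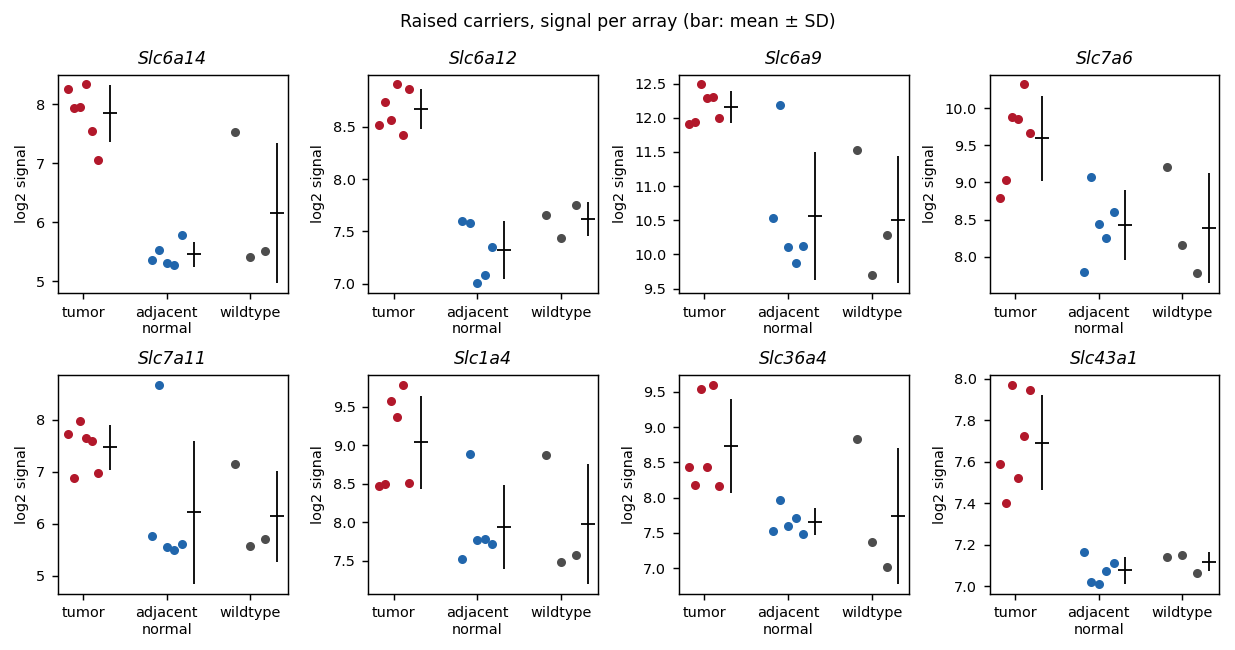
Log2 signal per array (vertical axis, its range set per gene and not starting at 0) of 8 raised carriers in 6 tumor, 5 adjacent normal and 3 wildtype arrays; points are arrays in replicate order, and the bar beside them is the mean ± SD. Tumors lie above all adjacent arrays for Slc6a14, Slc6a12, Slc36a4 and Slc43a1. Adjacent normal 2 lies within or above the tumor range for Slc6a9, Slc7a11, Slc1a4 and Slc7a6. Wildtype 1, the leftmost wildtype point, lies within that range for Slc6a14, at 7.53, and for Slc7a11, Slc1a4, Slc7a6 and Slc36a4.

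Genes around these carriers were counted from lists of the amino acid response and of amino acid sensing. Of 22 listed targets of ATF4, 3 were higher and 2 were lower in tumors. Vldlr, a lipoprotein receptor, was 1.48 ± 0.22 higher and the alanine transaminase Gpt2 1.45 ± 0.36 higher, while Cth, which makes cysteine from cystathionine, was 1.25 lower on the log2 scale. The translation repressor Eif4ebp1 was 0.56 ± 0.18 higher (adjusted p = 0.0314). The mean of the 22 targets was 8.71 to 9.27 in tumors. Adjacent normal 2 was the highest of all arrays at 9.61, against 8.36 to 8.48 in the other 4 adjacent arrays. Wildtype duodenum gave 9.125, 8.325 and 8.507, with wildtype 1 inside the tumor range. Of 25 genes of amino acid sensing by mTORC1, 8 were higher and 6 were lower. The Rag GTPase Rragd differed by -2.37 ± 0.25 and the sestrin Sesn1, of the family of a leucine sensor, by -1.87 ± 0.21, and Sec13, a subunit of the GATOR2 complex, by -0.74 ± 0.10, whereas Mios, another subunit of that complex, differed by 0.79 ± 0.13. Of 6 measured genes of glutathione synthesis and use, which depends on cystine entry, 2 were higher and 2 were lower, led by glutathione reductase, Gsr, at 0.76 ± 0.16 and the peroxidase Gpx4 at -0.93 ± 0.12. Of 11 amino acid carriers outside the 8 families, 4 were lower, namely the aromatic amino acid uniporter Slc16a10 at -3.29 ± 0.30 and the mitochondrial carriers Slc25a22, Slc25a15 and Slc25a13 between -1.48 and -0.73.

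Carriers of neurotransmitters and osmolytes made up 17 members, of which 3 were higher, 3 were lower and 11 did not pass in tumors against adjacent tissue. Of these 17, 12 had a signal below the median gene. Slc6a4 (SERT), which clears serotonin and is expressed by enterocytes, ran from 8.37 to 9.81 in tumors with a median of 9.15, against 10.11, 10.89, 11.19, 11.39 and 11.27 in adjacent tissue and 11.72, 11.77 and 11.01 in wildtype duodenum. All 6 lay below all non-tumor arrays, and the difference from adjacent tissue was -1.89 ± 0.22 (adjusted p = 1.84e-05). The creatine carrier Slc6a8 ran from 11.69 to 12.37 in tumors with a median of 12.21, against 12.85, 12.89, 13.33, 13.43 and 13.32 in adjacent tissue and 12.67, 13.16 and 13.05 in wildtype duodenum. It did not overlap either, at a difference of -1.04 ± 0.13 (adjusted p = 2.44e-05).

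Slc6a12 (BGT1), a carrier of the osmolyte betaine and of GABA, ran from 8.42 to 8.90 in tumors with a median of 8.65. Adjacent tissue gave 7.60, 7.58, 7.002, 7.08 and 7.35, and wildtype duodenum 7.66, 7.44 and 7.75. All tumors lay above all other arrays, wildtype 1 and adjacent normal 2 included. BGT1 signal differed from adjacent tissue by 1.36 ± 0.11, or 2.56-fold (limma, adjusted p = 1.53e-06), and it was 1.03 ± 0.11 within letter F and 1.59 ± 0.14 within letter B. The glutamate carrier Slc1a2 was 0.68 ± 0.16 higher (adjusted p = 0.00353). This call was lost within letter F, at 0.24 ± 0.17 (adjusted p = 0.438), and without the 4 low-acinar normal arrays, at 0.33 ± 0.19 (adjusted p = 0.356). The dim members Slc6a5, a glycine carrier of neurons, and Slc6a3, the dopamine carrier, differed by 0.24 ± 0.07 and -0.59 ± 0.19. The Slc6a5 call was lost without adjacent normal 1 or 5 or tumor 6 (adjusted p 0.0506 to 0.0633), and that of Slc6a3 without adjacent normal 3, 4 or 5 or tumor 4 or 5 (adjusted p 0.0632 to 0.0932). With the mouse as a fixed block over the 5 pairs neither passed (adjusted p = 0.106 and 0.082). The 11 members of this group that did not pass differed by -0.45 to 0.13 on the log2 scale (lowest adjusted p = 0.163).

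Among 6 carriers of lysosomes and endosomes, 3 were higher in tumors and 3 did not pass. Slc36a4 (PAT4), a carrier of proline and tryptophan, ran from 8.17 to 9.60 in tumors with a median of 8.43, against 7.53, 7.96, 7.59, 7.71 and 7.48 in adjacent tissue and 8.83, 7.38 and 7.01 in wildtype duodenum. The tumors lay above all adjacent tissue, at a difference of 1.09 ± 0.27 (adjusted p = 0.00637). The lysosomal glutamine exporter Slc38a7 and the histidine and peptide carrier Slc15a4 differed by 0.19 ± 0.07 and 0.28 ± 0.09. Neither call was stable to single arrays. That of Slc38a7 was lost in 11 of 14 fits, all but those without tumor 2 or 6 or adjacent normal 1 (adjusted p 0.0504 to 0.12). That of Slc15a4 was lost in 8, without any of tumors 2 to 6 or adjacent normal 2, 3 or 4 (adjusted p 0.0504 to 0.0791). Without adjacent normal 2 neither passed, which left 1 of the 6 higher. With the mouse as a fixed block over the 5 pairs their adjusted p were 0.179 and 0.0727. Slc38a9, the lysosomal arginine sensor of mTORC1, averaged 9.09 in tumors and 9.002 in adjacent tissue, a difference of 0.09 that did not pass (adjusted p = 0.327).

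Of the 17 other members, 2 were higher, 2 were lower and 13 did not pass. The member with the largest difference of all was Slc7a15, a carrier of aromatic amino acids in mouse whose human counterpart is a pseudogene. It ran from 7.37 to 7.87 in tumors with a median of 7.72. Adjacent tissue gave 10.07, 10.47, 11.59, 11.66 and 11.29, and wildtype duodenum 7.69, 11.42 and 10.37. Wildtype 1 lay within the tumor range, and the other 7 non-tumor arrays were more than 2 log2 units above it. Slc7a15 differed from adjacent tissue by -3.36 ± 0.42, or 10.3-fold (limma, adjusted p = 2.93e-05). Its promoter is printed because it holds the intestinal CDX element at 2 places, 196 and 45 bases before the start. Of the 72 windows of members 2 held this element, those of Slc3a1 and Slc7a15, beside 10.9% of all windows. The window is chr12:8599017-8599316 on the minus strand (RefSeq, GRCm38.p6, 5′ to 3′ on the gene's strand), and capitals mark the element.
Slc7a15: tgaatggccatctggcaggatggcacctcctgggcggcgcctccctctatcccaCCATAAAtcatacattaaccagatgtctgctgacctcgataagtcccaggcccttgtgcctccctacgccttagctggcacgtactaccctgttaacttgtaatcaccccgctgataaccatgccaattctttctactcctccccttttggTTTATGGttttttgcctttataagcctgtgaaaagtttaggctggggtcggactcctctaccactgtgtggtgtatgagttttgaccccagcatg
A second start of Slc7a15 has a window in which none of the motifs was found. Slc43a3, a purine nucleobase carrier, was 9.29 ± 0.27 in tumors and 9.97 ± 0.24 in adjacent tissue (SD, n = 6 and n = 5), without overlap, at a difference of -0.66 ± 0.13 (adjusted p = 0.00102). Slc7a4, a member with no known substrate, differed by 0.66 ± 0.15 (adjusted p = 0.00354) and the amino acid carrier Slc38a4 by 0.86 ± 0.27 (adjusted p = 0.0255). The Slc7a4 call was lost within letter F, at 0.34 ± 0.26 (adjusted p = 0.504), and without the 4 low-acinar normal arrays, at 0.48 ± 0.25 (adjusted p = 0.288). The Slc38a4 call was lost without adjacent normal 1, 3, 4 or 5 or tumor 6 (adjusted p 0.0522 to 0.0796). Slc38a10 averaged 9.40 ± 0.25 in tumors and 9.63 ± 0.28 in adjacent tissue, a difference of -0.22 ± 0.12 that did not pass (adjusted p = 0.19). The 13 members of this group that did not pass differed by -0.34 to 0.47 (lowest adjusted p = 0.12).

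Against wildtype duodenum, which shares its tumor arrays with the comparison above, 5 members were higher in tumors and 11 were lower (limma, adjusted p below 0.05). Of all genes tested 9.65% were higher and 4.48% were lower, and 14.1% passed in either direction. At a change of at least 2-fold, 4 members were higher, against 2.2% of all genes, and 9 were lower, against 1.7%. The groups did not overlap for 14 members, against 13.6% of all genes. The higher members were Slc6a9 at 1.65 ± 0.45, Slc6a14 at 1.69 ± 0.40, Slc7a6 at 1.21 ± 0.36, Slc6a12 at 1.05 ± 0.16 and Slc43a1 at 0.57 ± 0.13. The lower members were led by Slc43a2 at -2.55 ± 0.39 (adjusted p = 0.00112), Slc6a19 at -2.41 ± 0.25 (adjusted p = 0.000144), Slc6a4 at -2.37 ± 0.32 (adjusted p = 0.000526), Slc7a8 at -2.29 ± 0.38 (adjusted p = 0.00187) and Slc15a1 at -2.17 ± 0.26 (adjusted p = 0.00027). By role, 5 apical carriers were lower and 1 was higher, 3 basolateral carriers were lower and 3 were higher, and 0 of the 8 growth-related carriers passed in limma. Of those 8, 4 were higher at an unadjusted p below 0.05, which 26.5% of all genes met in either direction. With array weights 5 of the 8 were higher, beside 4163 of all genes, against 1924 without weights. Within letter B 14 members were higher and 14 lower than in wildtype duodenum, beside 2354 and 1346 genes. Within letter F, where wildtype 1 is the only wildtype array and is assumed to vary like the other groups, 0 members passed, with 4 higher and 6 lower at an unadjusted p below 0.05, and over all genes 1 was higher and 13 were lower.

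With 3 wildtype arrays, single arrays mattered in this comparison. Wildtype replicate 1 lay inside the tumor range for 11 of the 17 members that were higher and 6 of the 17 that were lower in tumors than in adjacent tissue. Wildtype replicates 2 and 3 each did so for 2 of the higher and 0 of the lower members. The same count over all genes was not made. Without wildtype 1 the counts were 9 higher and 13 lower, beside 3102 and 1424 genes, against 1924 and 893 genes with all arrays. Slc7a15 then differed by -3.23 ± 0.39 (adjusted p = 9.03e-05), against -2.16 ± 0.59 (adjusted p = 0.0252) with all arrays, and Slc6a14 by 2.38 ± 0.29, against 1.69 ± 0.40. Slc7a15 differed by -1.36 without wildtype 2 (adjusted p = 0.193). In a fit of the tumor and wildtype arrays alone, Slc7a15, Slc3a2 and Slc7a6 did not pass (adjusted p = 0.0523, 0.0531 and 0.0679) and Slc7a11 did (adjusted p = 0.0448). Without wildtype 2 the counts were 2 higher and 5 lower, beside 606 and 334 genes, and without wildtype 3 they were 2 and 7, beside 627 and 463 genes. Slc3a1, Slc6a20a, Slc6a14, Slc6a9, Slc7a6, Slc7a15 and Slc3a2 did not pass without either of these 2 arrays, at adjusted p of 0.0628 to 0.236. Slc7a9 and Slc6a8 did not pass without wildtype 2 alone, at 0.0857 and 0.0632. The calls of Slc3a2 and Slc7a6 were also lost without 4 and 3 of the tumors, tumors 1, 2, 4 and 5 for Slc3a2 (adjusted p 0.0501 to 0.0571) and tumors 3, 4 and 5 for Slc7a6 (adjusted p 0.0534 to 0.0644). Slc6a19, Slc15a1, Slc43a2, Slc7a8, Slc6a4, Slc6a12 and Slc43a1 passed in all 14 fits that left out 1 array.

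**Figure D5:**
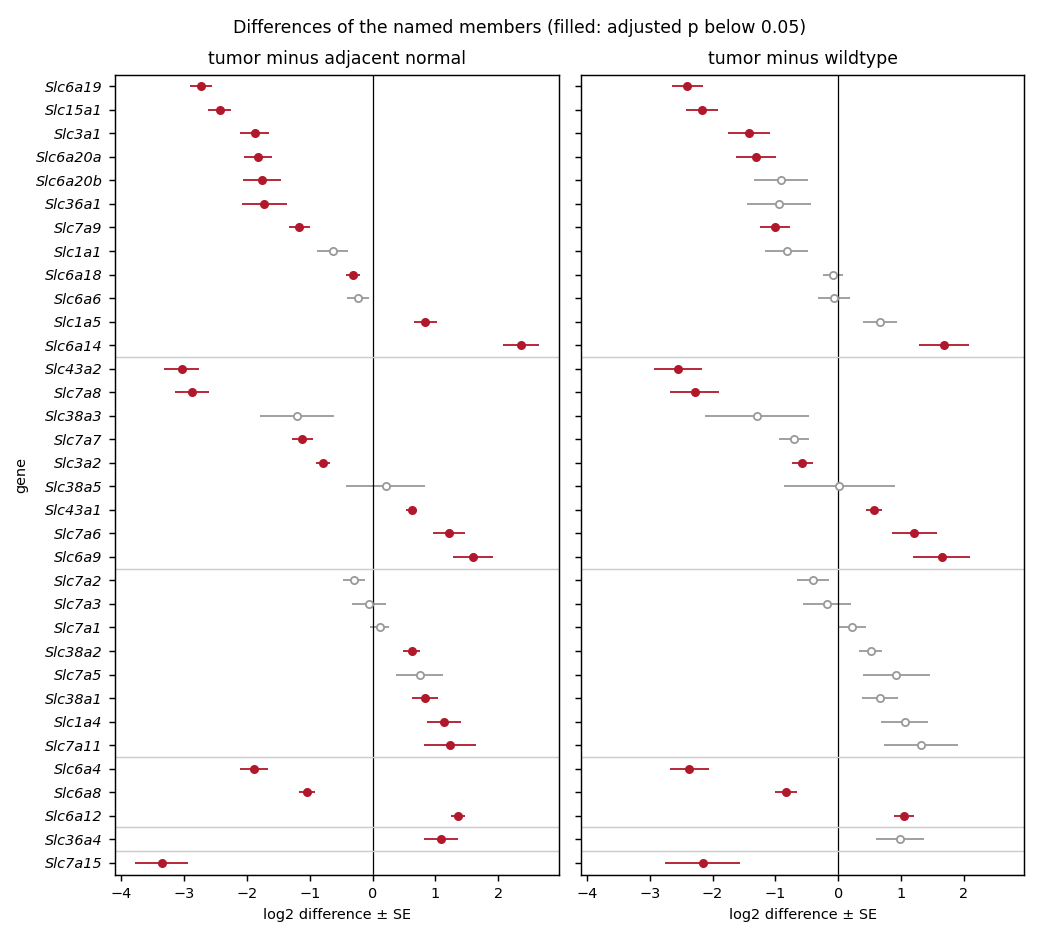
Log2 difference ± SE (horizontal axes, the same range in both panels) of 34 members, one per row, in tumor minus adjacent normal (left) and tumor minus wildtype (right); filled points have an adjusted p below 0.05, and lines between rows separate the roles. The largest negative values at left are -3.36 for Slc7a15 and -3.04 for Slc43a2 and the largest positive one 2.36 for Slc6a14, and the 8 growth-related carriers are open at right.

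Adjacent tissue and wildtype duodenum, which differ in Lrig1 genotype, gave 0 transporters past the threshold in either direction, as for all genes, where 0.0% were called (limma). At an unadjusted p below 0.05 there were 0 of 69 transporters and 559 of 19938 genes. The lowest unadjusted p of a transporter was 0.0687, for Slc7a15. The count was also 0 of 69 without the mouse block, with array weights and with each array left out, and 1 gene of all genes passed with array weights. No transporter had non-overlapping groups, against 2.12% of all genes. The largest differences of adjacent tissue from wildtype duodenum were 1.20 ± 0.61 for Slc7a15, 0.85 ± 0.44 for Slc6a20b, 0.79 ± 0.52 for Slc36a1 and -0.67 ± 0.41 for Slc6a14 (adjusted p = 0.998 each). For each of these 4 genes wildtype 1 lay within the tumor range. Within letter F, with that 1 wildtype array, Slc7a15 differed by 2.60 ± 0.30 (adjusted p = 0.0377) and Slc6a14 by -2.06 ± 0.20 (adjusted p = 0.026), where 15 genes were higher and 58 lower over all genes.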

How the data were processed

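RNA from 6 tumor, 5 adjacent normal and 3 wildtype samples, extracted with RNeasy columns and DNase per the labels' protocols, was measured on 14 arrays. The values are log2 signals as deposited, 1 per transcript cluster, made by the authors with Expression Console 1.1 (build mm9, per the submitters' processing notes). How background was corrected and arrays were normalized is not given in the sources used here. The values ran from 2.87 to 14.8 and the array medians from 7.11 to 7.29, and the number of arrays limits the precision. Of 35556 clusters, 21789 carried a single symbol, 1621 carried several and 12146 none. Of those with 1 symbol, 21698 were matched to the RefSeq table of GRCm38.p6, used for names and promoter windows, and 91 kept the platform's symbol. Where a gene had more than 1 cluster (999 genes), the brightest by its mean over all arrays stood for it, which left 19938 genes.

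Groups were compared with limma 3.58.1 in R 4.3.3 in 1 fit of all groups, with the mouse as a random block (correlation 0.334) and Benjamini-Hochberg adjustment over all 19938 genes. The mouse IDs in the labels give the pairing. After group means were removed, the values correlated at 0.225 on average between samples of 1 mouse (range -0.0299 to 0.395) and at -0.0439 between different mice (exact permutation test, one-sided p = 0.00833, the smallest that 120 pairings allow). The code was tested on simulated data. The alternatives were the block, the scaling, a signal filter, array weights, the prior, the rule for several clusters, each array left out, arrays chosen by acinar signal, and each letter of the mouse IDs. Lists were described by counts and medians, with no test of the list. The rule named all members of the apical, basolateral and growth lists, other members called at 2-fold or more, the 3 highest in mean signal of each remaining list, and up to 4 called genes with the largest change per list of non-members. The other called members, Slc9a3r2, and those in the closing section were named after their values were seen. The members and lists were chosen with earlier results of these data known. Each array is a separate sample per the labels.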

Additional observations from a re-analysis of the deposited data

Results flagged for a closer look

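In the tumor and adjacent normal groups, 138 sets of values (69 members in 2 groups) were searched for an array far from the rest of its group by Dixon's criterion. Chance flags about 1 in 20 such sets. There were 16, and 12 of them were adjacent normal 2, the array with the highest acinar signal.

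Adjacent normal 2 was above the other 4 adjacent arrays in 11 of these genes. Among the growth-related carriers, Slc7a5 was at 12.091 against 9.574 to 9.965 in the others, Slc7a11 at 8.675 against 5.508 to 5.775, Slc1a4 at 8.885 against 7.521 to 7.785, Slc38a2 at 11.931 against 11.224 to 11.3, and the cationic amino acid carrier Slc7a2 at 7.503 against 6.135 to 6.337. The glutamine carriers Slc38a3 and Slc38a5 showed the widest gaps, with 11.198 against 6.584 to 7.359 and 11.01 against 6.398 to 7.295. The glycine carrier Slc6a9 was at 12.189 against 9.879 to 10.538. Slc38a4 was at 6.908 against 5.97 to 6.024. Slc7a4 was at 8.344 against 7.576 to 7.783. Slc6a15, a neutral amino acid carrier of brain, was at 6.576 against 4.834 to 5.092. The exception was Slc38a11, at 5.532 in adjacent normal 2 against 6.404 to 6.599. Acinar transcripts were also high in adjacent normal 1, at a mean of 13.4, and their part in these values was not tested. The search flags only the most extreme array, so adjacent normal 1 could not be flagged as high beside adjacent normal 2. Among adjacent arrays, replicate 1 ranked next after replicate 2 for Slc38a3, Slc38a5, Slc6a9, Slc7a11 and Slc6a15. It was lowest for Slc1a4, Slc7a2 and Slc7a4, and in between for Slc38a2, Slc38a4 and Slc7a5. Wildtype 1 and 3, also high in acinar transcripts, were both above wildtype 2 for these 11 genes except Slc38a4 and Slc7a4.

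Slc6a17 was low in adjacent normal 1, at 7.036 against 7.574 to 7.666 in the others. Among tumors, the lysosomal carrier Slc15a4 was low in tumor 1, at 8.383 against 8.616 to 8.728. The GABA carrier Slc6a13 was high in tumor 6, at 7.108 against 6.594 to 6.733. Slc7a12 was low in tumor 5, at 4.004 against 4.136 to 4.198.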

How the results depend on the processing

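Of the 17 members that were higher in tumors than in adjacent tissue, 12 passed in every fit that left out 1 array and 2, Slc6a12 and Slc6a14, under every alternative. Of the 17 that were lower, 15 and 9 did so. All 34 kept their direction in every alternative. The count of higher members was 3 without the 4 non-tumor arrays lacking acinar transcripts and 2 in the mice of letter F alone, while the higher genes of all went to 1191 and 1104, against 3804 with all arrays. The count of lower members was 9 within letter F, beside 615 genes, against 2509. The count of higher members ran from 13 to 16 with each array left out, and that of lower members from 15 to 19. With no replicate block the counts were 13 higher and 15 lower, beside 2853 and 1958 genes. With a fixed replicate block for the 5 pairs they were 13 and 16, beside 3356 and 2219 genes. For tumors against adjacent tissue, the Slc7a3 difference of -0.05 became 0.48 when the 4 acinar-containing normal arrays were left out, and 0.59 in the mice of letter B. It was -0.82 and -0.95 in the complementary fits, without the 4 low-acinar arrays and in the mice of letter F. These complementary fits both keep adjacent normal 1 and 2, and the fits named before them both keep adjacent normal 3 to 5. For tumors against wildtype duodenum, array weights gave 15 higher and 19 lower members, beside 4163 and 2867 of all genes. Without weights those gene counts were 1924 and 893. Without the 4 arrays lacking acinar transcripts 1 member was higher and 5 were lower, and the count over all genes is not given here. Within letter B 14 members were higher, beside the gene counts given above. With each array left out 2 to 9 were higher and 5 to 13 lower. All 16 members called without weights kept their direction. The adjacent tissue gave 1 member higher and 1 lower than wildtype duodenum within letter F, beside 15 and 58 genes, and 0 of each with each array left out. Fewer arrays were fitted where arrays were left out; otherwise the cause was not tested.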
